A study of Mus musculus with 27 samples.

Results

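The genes described here are 10 transcripts of neutrophil granules and of calprotectin, out of 41388 gene identifiers counted in 27 mouse livers. They were listed by name, chosen by their scaled counts in these same livers across vehicle and 8 TCDD doses, and their differences from vehicle are given as a description with no test. The contents of the azurophil granules, made first in the promyelocyte, are represented by Mpo, Elane, Prtn3 and Ctsg. The specific granules, made later, are represented by Ltf, Camp and Ngp. The mature markers are S100a8 and S100a9, whose proteins pair as calprotectin, and Retnlg.

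Neutrophils fill their granules in the bone marrow in a fixed order: myeloperoxidase and the serine proteases are transcribed in promyelocytes, lactoferrin, cathelicidin and neutrophilic granule protein in the following stages, and transcription of both sets is largely over when the cell enters the blood. Circulating neutrophils keep abundant S100a8 and S100a9 messenger RNA. A healthy adult liver holds few neutrophils and does not normally make them, although the fetal liver does.

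The mice were ovariectomized females of strain C57BL/6 with a labelled age of 120 days, in 9 groups of 3 livers. All groups were gavaged every 4 days for 92 days with sesame oil, and 8 of them received TCDD in it. The lower doses were 0.01, 0.03, 0.1 and 0.3 µg/kg, the higher ones 1, 3, 10 and 30 µg/kg. The labels also call the gavage daily in the same sentence. TCDD (2,3,7,8-tetrachlorodibenzo-p-dioxin) activates the aryl hydrocarbon receptor and is cleared slowly, and the series title names metabolism and hepatic fibrosis. No group without ovariectomy or sesame oil was analysed here. The labels number the livers 1 to 3 in each group but do not describe their source further, so that p-values measure only the spread between these samples, which may be partly technical.

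Library totals ran from 11050391 to 30873586 counts in 26 libraries and reached only 434011 in the second 0.3 µg/kg library. That library held 0 counts of all 10 genes, where 3 counts would amount to 8.62 CPM, and it carries no information on them. Cyp1a1, a direct target of the receptor, averaged 3.12 ± 0.605 CPM (SD, n = 3) in vehicle and 3173, 4864 and 4017 CPM in the 1 µg/kg livers 1, 2 and 3. Hepatocyte markers were abundant in every library, with 9 listed genes summing to 62976 to 237221 CPM. In whole liver RNA, fewer cells of a type and less RNA per cell cannot be told apart.

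The promoters of 2 azurophil and 2 specific granule genes are shown because these classes are compared in the results. Each run is the RefSeq sequence of GRCm38.p6 from 250 bases before to 50 bases after the annotated start, 5′ to 3′ on the strand of the gene, and capitals mark a motif that was searched on both strands.
Mpo, chr11:87793534-87793833, plus strand, capitals GAGGAAG: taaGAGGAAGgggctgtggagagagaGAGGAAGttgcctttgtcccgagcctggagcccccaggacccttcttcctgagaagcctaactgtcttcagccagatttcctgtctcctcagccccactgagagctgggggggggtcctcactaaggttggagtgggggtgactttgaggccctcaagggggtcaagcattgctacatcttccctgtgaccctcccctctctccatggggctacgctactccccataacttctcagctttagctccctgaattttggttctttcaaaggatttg
Elane, chr10:79886062-79886361, plus strand, capitals GAGGAAG: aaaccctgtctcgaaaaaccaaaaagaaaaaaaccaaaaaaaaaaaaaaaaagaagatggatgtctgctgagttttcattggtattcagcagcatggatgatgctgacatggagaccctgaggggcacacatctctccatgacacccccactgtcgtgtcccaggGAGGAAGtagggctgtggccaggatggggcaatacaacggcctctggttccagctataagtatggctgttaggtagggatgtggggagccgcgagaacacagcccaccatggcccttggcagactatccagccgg
Ltf, chr9:111019042-111019341, plus strand, capitals TTGCNNAA on the reverse strand: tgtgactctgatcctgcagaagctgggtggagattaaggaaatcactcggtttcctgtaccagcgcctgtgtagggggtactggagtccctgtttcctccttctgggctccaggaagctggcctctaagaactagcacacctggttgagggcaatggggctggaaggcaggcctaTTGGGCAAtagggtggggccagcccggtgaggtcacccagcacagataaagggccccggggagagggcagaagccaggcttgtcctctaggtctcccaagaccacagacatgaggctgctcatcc
Ngp, chr9:110419558-110419857, plus strand, capitals TTGCNNAA on either strand: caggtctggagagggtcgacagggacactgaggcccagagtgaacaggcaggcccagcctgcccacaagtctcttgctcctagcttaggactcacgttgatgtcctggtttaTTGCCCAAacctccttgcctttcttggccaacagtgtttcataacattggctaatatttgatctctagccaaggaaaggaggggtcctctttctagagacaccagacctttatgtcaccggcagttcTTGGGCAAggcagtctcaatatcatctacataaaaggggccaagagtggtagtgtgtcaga
GAGGAAG, a purine-rich word of the kind bound by PU.1, lay in the promoters of all 4 azurophil genes and of S100a8, and in 13.4% of 32544 promoters of that length. TTGCNNAA, a C/EBP-like word, lay in those of Ltf, Ngp, S100a9 and Retnlg and in 10.8% of all promoters. The copy in Elane began 85 bases before the start, those in Mpo 247 and 224 bases, the one in Ltf 75 bases, and those in Ngp 138 and 11 bases. The core of the dioxin response element, GCGTG, lay in the Prtn3 and Ctsg promoters and in 32.6% of all. TGTGGT, a RUNX word, lay in those of Ctsg, Ltf and S100a9 and in 16.7% of all, and TTCNNNGAA, a STAT word, in that of Ctsg and in 8.33% of all. No 2 of these matches overlapped in the 10 promoters. The motifs were chosen after the sequences had been read, and a match is a description of these letters only.

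The myeloperoxidase gene Mpo (chromosome 11, 87793581 to 87804413) encodes the enzyme that makes hypochlorous acid in the azurophil granule. In CPM, counts scaled to a library of 1000000, its level was 0.112, 0 and 0.0401 in the vehicle livers. The 1 µg/kg values were 74.7, 0.214 and 7.94 CPM in livers 1, 2 and 3. Livers 1 and 3 stood far above vehicle, while liver 2 was only just above the highest vehicle liver. In the 3 µg/kg livers Mpo was 0.652, 0.617 and 0.501 CPM, at 10 µg/kg 0.401, 0.557 and 1.18 CPM, and at 30 µg/kg 0.756, 1.58 and 4.25 CPM. No liver of these 3 groups overlapped with vehicle. The ratio of pooled counts to vehicle was 395 (95% interval 154 to 1450) at 1 µg/kg and 35.8 (13.7 to 133) at 30 µg/kg. These exact intervals cover counting error only, and vehicle had 4 counts. Exons of Mpo share 15% of their bases with a gene on the other strand, and the strand setting of the counting is not given in the sources used here.

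Elane (chromosome 10, 79886247 to 79888215) and Prtn3 (chromosome 10, 79874476 to 79883174) are neighbours that encode neutrophil elastase and proteinase 3. Elane was 0, 0 and 0.0803 CPM in vehicle and 28.7, 0.107 and 2.72 CPM at 1 µg/kg. The 30 µg/kg livers had 0.756, 0.538 and 2.45 CPM, all above vehicle, after 0.245, 0.265 and 0.0385 CPM at 3 µg/kg with overlap. Prtn3 was 0.112, 0.0523 and 0 CPM in vehicle and 37.1, 0.0357 and 3.65 CPM at 1 µg/kg, so that the second of these livers lay within the vehicle range. The 30 µg/kg group, with 0.462, 0.423 and 3.30 CPM of Prtn3, was again without overlap. Of Prtn3's exonic bases, 9.18% lie opposite a gene on the other strand. Ctsg (chromosome 14, 56099881 to 56102574), which encodes cathepsin G, had the lowest mean of the 4 per kilobase of exon at 1, 3, 10 and 30 µg/kg. It had 0.0373, 0.0523 and 0 CPM in vehicle, 11.7, 0.107 and 1.03 CPM at 1 µg/kg, and only 0.0840, 0.0768 and 0.479 CPM at 30 µg/kg. At 3 µg/kg Ctsg had no counts in any liver, and the pooled interval allows a ratio to vehicle of up to 7.61. The 2 lower 30 µg/kg livers had 2 Ctsg counts each, below the 3 counts used here as a floor.

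Ltf (chromosome 9, 111019271 to 111042767) encodes lactoferrin, the iron-binding protein of the specific granule. It was 0, 0 and 0.0401 CPM in vehicle, which is 1 count in all. The 1 µg/kg livers had 127, 0.286 and 12.6 CPM. The order of the 3 livers was that of the azurophil genes. The 10 µg/kg livers had Ltf at 0.768, 0.881 and 2.74 CPM and the 30 µg/kg livers at 2.35, 3.27 and 9.04 CPM, all above vehicle, as were the 3 µg/kg livers with 0.489, 0.882 and 0.385 CPM. The pooled ratio to vehicle was 321 at 30 µg/kg, with an interval from 57.2 to 12715 that reflects the single vehicle count. Camp (chromosome 9, 109847379 to 109849617), the gene of the cathelicidin antimicrobial peptide, was 0.0746, 0 and 0 CPM in vehicle. It was 62.6, 0.107 and 11.7 CPM at 1 µg/kg, compared with 1.22, 1.38 and 3.14 CPM at 30 µg/kg. The second 1 µg/kg liver had 3 Camp counts against 2 in the highest vehicle liver. The 3 µg/kg livers had 0.245, 0.353 and 0.270 CPM of Camp and the 10 µg/kg livers 0.434, 0.417 and 1.94 CPM, without overlap between these groups.

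Ngp (chromosome 9, 110419747 to 110423012), the neutrophilic granule protein, had the highest mean of the 7 granule genes per kilobase of exon at 1, 3, 10 and 30 µg/kg. Vehicle livers had 0.0373, 0 and 0.0803 CPM, 3 counts in all. At 1 µg/kg the livers had 253, 0.607 and 25.5 CPM. The 3 µg/kg livers had 1.14, 0.882 and 0.539 CPM, those at 10 µg/kg 1.94, 1.86 and 6.16 CPM and at 30 µg/kg 3.57, 3.92 and 14.7 CPM. From 3 µg/kg upward each group was above vehicle in every liver, and the third liver was the highest at 10 and at 30 µg/kg. The pooled ratio to vehicle was 18.1 (5.75 to 91.7) at 3 µg/kg, 76.6 (25.9 to 374) at 10 µg/kg and 160 (54.3 to 777) at 30 µg/kg.

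S100a8 (chromosome 3, 90668978 to 90670035) and S100a9 (chromosome 3, 90692632 to 90695721) encode the 2 calcium- and zinc-binding subunits of calprotectin. S100a8 was 0.373, 0.575 and 0.722 CPM in vehicle. Its 1 µg/kg values were 224, 1.43 and 52.1 CPM, at 10 µg/kg 3.14, 7.79 and 14.7 CPM and at 30 µg/kg 18.5, 17.3 and 33.9 CPM. All 3 of these groups lay wholly above vehicle, but at 3 µg/kg the third liver, at 0.693 CPM, fell within the vehicle range while the others had 3.42 and 4.14 CPM. S100a9 was 2.02, 0.628 and 1.53 CPM in vehicle and 321, 2.25 and 69.8 CPM at 1 µg/kg. The 3 µg/kg livers had 4.08, 4.94 and 2.54 CPM, those at 10 µg/kg 6.15, 11.6 and 17.6 CPM, and those at 30 µg/kg 24.4, 20.9 and 48.8 CPM. These groups followed each other without overlap. The pooled ratio to vehicle at 30 µg/kg was 40.4 (29.4 to 57.1) for S100a8 and 20.3 (16.6 to 24.9) for S100a9. Both genes had lower ratios than the specific granule genes Ngp, Ltf and Camp, and they rest on 39 and 104 vehicle counts. Against the azurophil genes the order differed. The ratio of S100a8 was above those of Elane, by a narrow margin, and of Mpo, Prtn3 and Ctsg. That of S100a9 was above Ctsg only. The intervals of Camp and of the azurophil genes overlapped those of S100a8 and S100a9. That of Ngp, from 54.3 to 777, overlapped the interval of S100a8 but not that of S100a9. The interval of Ltf began at 57.2, only just above that of S100a8.

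Retnlg (chromosome 16, 48872621 to 48874496), a resistin-like secreted protein of neutrophils, had 0.149, 0 and 0.161 CPM in vehicle. The 1 µg/kg livers had 18.7, 0.250 and 3.27 CPM, those at 10 µg/kg 0.201, 1.25 and 2.49 CPM, and those at 30 µg/kg 1.60, 2.96 and 6.11 CPM. Each of these groups was above vehicle in every liver, the lowest by a narrow margin. Retnlg was also the only gene of the 10 whose 3 livers exceeded vehicle at 0.03 and at 0.1 µg/kg, where it was 0.177 to 0.226 CPM and 0.175 to 0.448 CPM.

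**Figure D1:**
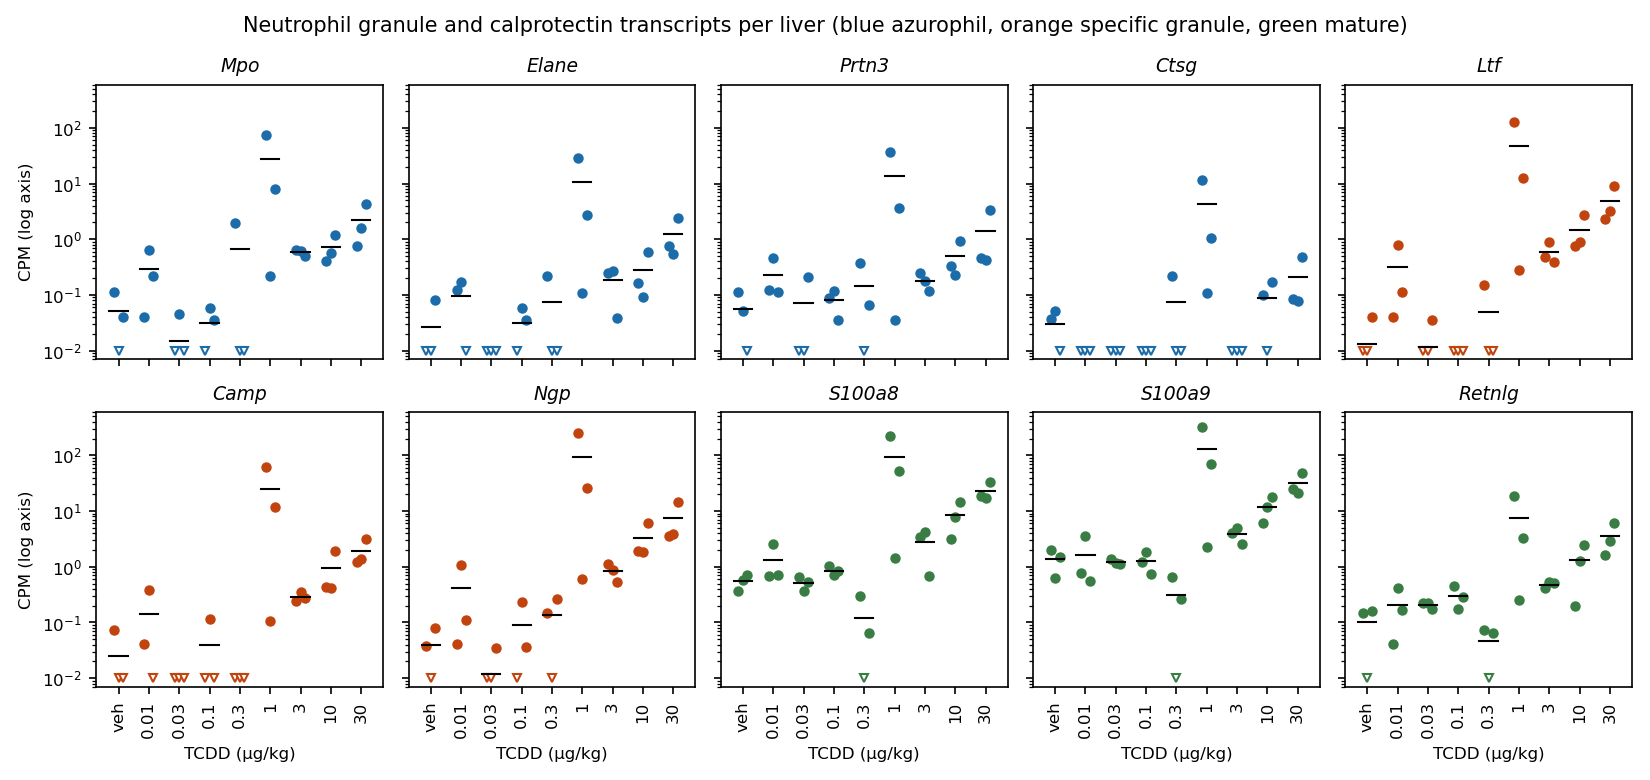
Level of each of the 10 genes in every liver by TCDD dose, in CPM on a log axis. Filled circles are single livers in the order 1 to 3, bars are group means, and open triangles at the foot are livers with 0 counts. In all 10 panels the 1 µg/kg livers 1 and 3 stand high and liver 2 low, and from 3 to 30 µg/kg the group means rise.

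Below 1 µg/kg the counts were few: the summed granule genes ranged from 0 to 3.53 CPM, with a median of 0.307 CPM, over the 14 deeper libraries of vehicle and the lower doses. Among these libraries 2 single livers stood apart. The second 0.01 µg/kg liver had 1.09 CPM of Ngp, 0.798 CPM of Ltf and 3.61 CPM of S100a9, against at most 0.111, 0.111 and 0.765 CPM in the other 2 livers of its group. The same liver had 63.7 CPM of 16 cell cycle genes summed, against 32.7 and 28.5 CPM in the others, and 535 CPM of 14 monocyte and macrophage genes, against 347 and 281 CPM. The first 0.3 µg/kg liver had 27 counts of Mpo (1.99 CPM), more than any single 3 or 10 µg/kg liver in CPM. It had 2 counts each of Ltf and Ngp and none of Camp. S100a9 in that liver was 0.665 CPM, at the low end of vehicle. The summed basophil and mast cell markers in that liver were 3.03 CPM, against 0.994 to 1.38 CPM in vehicle, and their part in the Mpo value was not tested.

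The order of the groups by mean was the same at its upper end for all 10 genes: 1 µg/kg was the highest, then 30, then 10 µg/kg. Without the first 1 µg/kg liver the 1 µg/kg means were 3.46 to 7.48 times lower, still above those of 30 µg/kg for 9 genes but not for Retnlg, at 1.76 against 3.56 CPM. The 1 and 30 µg/kg groups nevertheless overlapped for all 10, because the second 1 µg/kg liver lay below every 30 µg/kg liver for 9 of them and, for Ctsg, among them. Between 10 and 30 µg/kg the mean was higher at 30 µg/kg for all 10 genes, but only S100a8 and S100a9 had no overlap, and 10.4% of the genes tested were likewise higher without overlap. Between 3 and 10 µg/kg, Camp, Ngp and S100a9 had no overlap, again beside 10.4% of the genes tested. At the lower end vehicle and the doses up to 0.3 µg/kg changed places from gene to gene and mostly overlapped. The dose order is thus not a steady rise: the highest means belong to 1 µg/kg through 2 of its 3 livers, and 3 µg/kg lies far below.

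The same fit that tested the other genes called all 10 higher at 1 µg/kg (edgeR's quasi-likelihood test, adjusted p below 0.05 over 15121 genes), beside 11.1% of all genes tested. It called 0 at 3 µg/kg, beside 5.17%, with 0 at an unadjusted p under 0.05 and 0 by DESeq2. At 10 µg/kg it called 3, Ngp, S100a8 and S100a9, beside 11.3%. For 30 µg/kg it called 8, without Prtn3 and Ctsg, beside 18% of all genes. At 0.01, 0.03, 0.1 and 0.3 µg/kg it called 0 of the 10, beside 0, 0.0331, 0.145 and 0.622%, with 0 at an unadjusted p under 0.05 in each case. Livers all above vehicle were found for 9 of the 10 at 1 µg/kg, 7 at 3, 9 at 10 and 10 at 30 µg/kg, beside 16.9, 16.1, 20.7 and 23.9% of the genes tested. At the 4 lower doses, in rising order, the numbers were 1, 1, 1 and 0, beside 3.71, 4.38, 7.36 and 5.52%. All 10 passed the low-count filter, the granule genes and Retnlg through the groups in which they are high. Because these contrasts chose the genes, the counts are a description and nothing is read from them. Without the first 1 µg/kg liver, or without vehicle liver 1 or 3, 9 of the 10 were called at that dose, all but Ctsg, and the 10 µg/kg count fell to 1 without the second 10 µg/kg liver or without the shallow library, and to 0 without any 1 of the vehicle livers or without the third 10 µg/kg liver. The 30 µg/kg count fell to 5 (Ltf, Ngp, Retnlg, S100a8 and S100a9) without any 1 vehicle liver or without the third 30 µg/kg liver. In fits of each comparison's 6 libraries alone, 0 of 3 members tested were called at 1 µg/kg, 3 of 4 at 3 µg/kg, 6 of 6 at 10 µg/kg and 9 of 9 at 30 µg/kg.

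The granule transcripts were set against the mature markers in each liver. The summed 7 granule genes reached 594 CPM in the first 1 µg/kg liver, beside 564 CPM of S100a8, S100a9 and Retnlg. The sums were 65.1 and 125 CPM in the third liver of that dose and 1.46 and 3.93 CPM in the second. In the 30 µg/kg group the granule sums were 9.19, 11.2 and 37.4 CPM and the mature sums 44.5, 41.2 and 88.8 CPM in livers 1, 2 and 3. The first 1 µg/kg liver was the only one at or above 1 µg/kg in which granule transcripts exceeded the mature ones.

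On a log2 scale with 0.1 CPM added to each sum, the granule sum minus the mature sum was -2.68 ± 0.20 in vehicle (mean ± SD, n = 3, livers from -2.88 to -2.48). It was 0.07, -1.36 and -0.94 in the 1 µg/kg livers. The mean was -0.74 ± 0.74 at 1 µg/kg, -1.30 ± 0.30 at 3, -1.61 ± 0.62 at 10 and -1.79 ± 0.51 at 30 µg/kg. All 12 livers from 1 to 30 µg/kg lay above the 3 vehicle livers, with the granule sum closer to the mature sum than in vehicle. From 1 to 30 µg/kg the group means fell while the livers of neighbouring groups overlapped. The vehicle values rest on 2 to 10 granule counts per liver and depend on the added 0.1 CPM. With nothing added, the vehicle livers ran from -3.52 to -2.77 and the 12 livers from -2.35 to 0.07, still apart. With 1 CPM added the order turned for the upper doses: the mean was -1.27 ± 0.24 in vehicle, -1.47 ± 0.56 at 10 and -1.73 ± 0.47 at 30 µg/kg. From the pooled counts alone, granule genes were 10.7% (6.84 to 16.2) of the counts of the 10 genes in vehicle, 48.5% at 1 µg/kg and 24.2% (23.02 to 25.39) at 30 µg/kg. These intervals cover counting error only. The first liver gave 9994 of the 11231 granule counts at 1 µg/kg, and the shares of livers 1, 2 and 3 were 51.3, 27.2 and 34.2%. In the log2 difference the lower groups were wide: -1.66 to -0.89 at 0.01, -4.55 to -2.31 at 0.03 and -3.88 to -2.03 at 0.1 µg/kg. At 0.3 µg/kg the first liver, with its Mpo counts, was the highest of all libraries and the third at -0.21. Their mature sums, 1.03 and 0.396 CPM on 14 and 6 counts, were also below those of all vehicle livers. The third liver had only 5 granule counts. These differences take both granule classes together and were not computed for each class. The azurophil genes alone summed to 0.261, 0.105 and 0.120 CPM in vehicle, beside mature sums of 2.54, 1.20 and 2.41 CPM. At 30 µg/kg they summed to 2.06, 2.61 and 10.5 CPM beside 44.5, 41.2 and 88.8 CPM, without gaining on the mature sum in every liver. The specific granule genes rose from at most 0.120 CPM in vehicle to 7.14, 8.57 and 26.9 CPM.

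**Figure D2:**
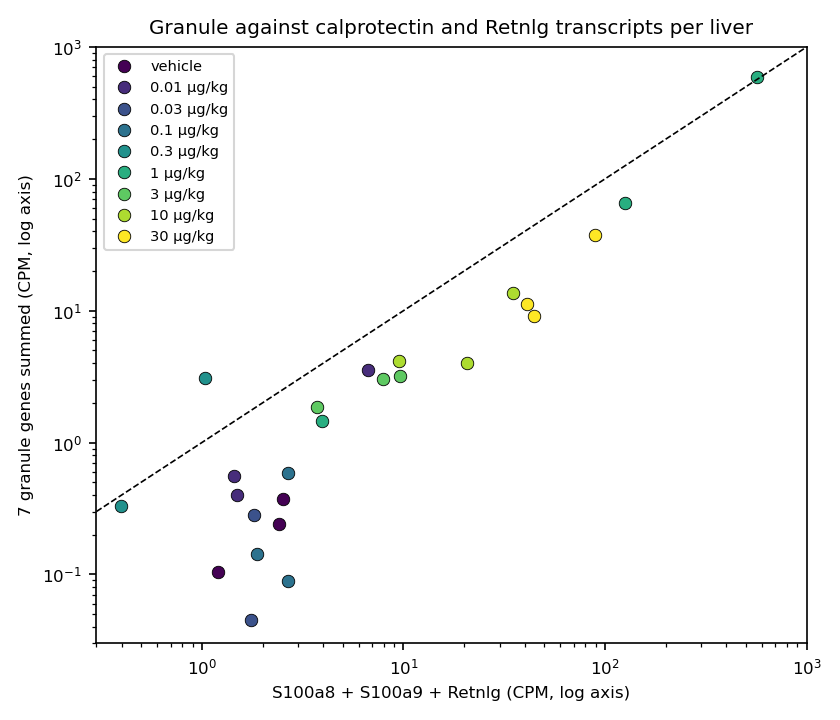
Summed level of the 7 granule genes against the summed level of S100a8, S100a9 and Retnlg in single livers, both in CPM on log axes, coloured by dose. The dashed line marks equal sums; the first 1 µg/kg liver sits close to it at 594 and 564 CPM, the other livers from 1 to 30 µg/kg lie below it, and 2 livers with no granule counts are not drawn.

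The proportions of the 2 classes within the granule transcripts varied between groups. Pooled over the livers of a dose, the azurophil share was 25.4% at 1 µg/kg (95% Wilson interval 24.6 to 26.2), 35.5% at 3 µg/kg (27.6 to 44.4), 21.8% at 10 µg/kg (18.5 to 25.5) and 25.9% at 30 µg/kg (23.5 to 28.4). The 3 µg/kg interval overlapped that of 30 µg/kg but not those of 1 and 10 µg/kg, and these intervals cover counting error only. In vehicle the pooled share was 66.7% (43.7 to 83.7), on only 18 granule counts. It was 41.3% (32.4 to 51.0) at 0.01 µg/kg, on 104 counts. At 0.03, 0.1 and 0.3 µg/kg it was 77.8, 56.2 and 83.0%, on 9, 16 and 47 counts. The intervals of vehicle and of these lower doses all lay above those of 1, 10 and 30 µg/kg. In single livers, the 4 azurophil genes gave 25.6% of the granule counts in the first 1 µg/kg liver (95% Wilson interval 24.7 to 26.5) and 23.6% in the third (21.3 to 26.1). Shares at 30 µg/kg were 22.4, 23.4 and 28.0%. Over the 12 livers from 1 to 30 µg/kg they ranged from 20.9 to 37.8%, and the 3 highest were those of the 3 µg/kg livers, with 36 to 48 granule counts each. The first 0.3 µg/kg liver stood outside this range at 90.5% (77.9 to 96.2), 38 of 42 counts. Counts are not corrected for length here, so a share compares livers and not the amounts of the 2 classes.

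**Figure D3:**
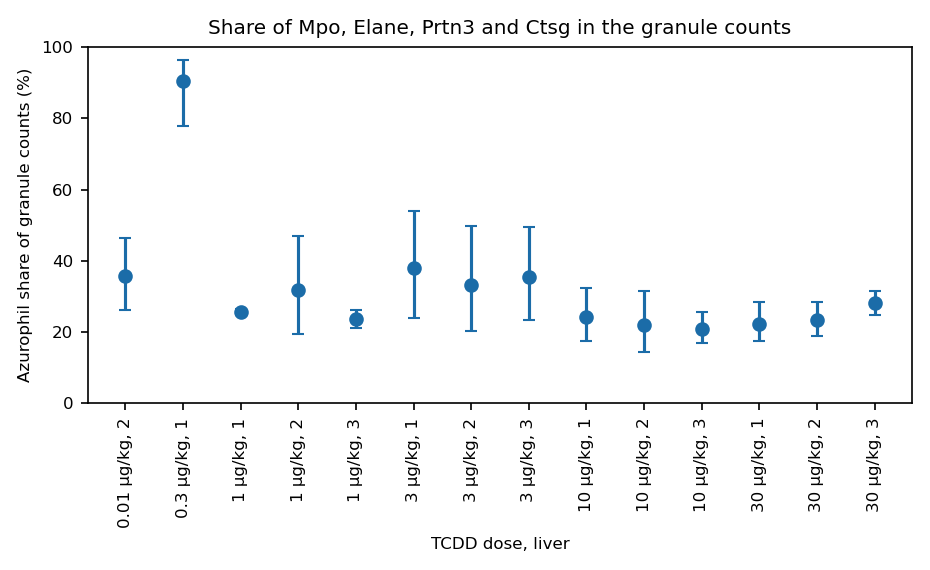
Percentage of the granule counts that belong to Mpo, Elane, Prtn3 and Ctsg in the 14 livers with at least 20 granule counts. Points are single livers and bars are 95% Wilson intervals, which cover counting error only; 13 livers lie between 20.9 and 37.8% and the first 0.3 µg/kg liver at 90.5%.

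The shares of single genes within each class varied as well. Ngp made up 57.2% of the specific granule counts in the first 1 µg/kg liver and 51.2% in liver 3, and 41.7 to 61.7% over the 12 livers. Mpo made up 49.1 and 51.8% of the azurophil counts in those 2 livers. Its share at 30 µg/kg was 36.7% (24.7 to 50.7) in the first liver, where Elane had the same share, and 60.3% (48.4 to 71.1) in the second. The intervals of these 2 livers overlap narrowly. S100a8 gave 41.1 and 42.7% of the calprotectin counts in the 1 µg/kg livers 1 and 3 and 41.0 to 45.2% at 30 µg/kg. Among the 12 livers from 1 to 30 µg/kg the lowest share, 21.4% (14.0 to 31.3), belonged to the third 3 µg/kg liver, the one whose S100a8 lay within the vehicle range.

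Compared per kilobase of exon, S100a9 and S100a8 had the highest means of the 10 and Ctsg the lowest at 1, 3, 10 and 30 µg/kg. In vehicle the mean levels were 0.00388 RPKM for Ltf and 0.0148 for Mpo, below the 0.0289 of Ctsg. These vehicle means rest on 1, 4 and 2 counts in all, too few to order the genes. In the first 1 µg/kg liver the level was 616 RPKM for S100a9, 323 for S100a8, 207 for Ngp and 82.6 for Camp, and 11.3 RPKM for Ctsg. The other 5 lay between 21.4 and 36.8 RPKM there. Means at 30 µg/kg were 60.1 RPKM for S100a9, 33.5 for S100a8, 6.06 for Ngp, 6.00 for Retnlg and 0.206 for Ctsg. Retnlg, below Camp and Ltf in the first 1 µg/kg liver, stood above both at 30 µg/kg.

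The 10 genes varied together across livers. Over the 26 deeper libraries the 45 pairwise correlations of log2(CPM + 0.1) ran from 0.735 (Ctsg with Retnlg) to 0.983 (Ltf with Ngp), with a median of 0.923. Without the 1 µg/kg livers 1 and 3 they ran from 0.491 to 0.966 with a median of 0.845 over 24 libraries. The livers of a group share their dose and may share library preparation, and the genes were chosen for this pattern. These values therefore describe and do not test.

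Among genes outside the 10, those most like the summed granule level over the 26 libraries were Slc2a3 (r = 0.95), Treml2, Cd177, F13a1, Rasgrp4, Slc38a1, Syk, Tnfaip3, Elf4 and Chil3 (r = 0.914). Slc2a3, a glucose transporter, was 7.02, 0.857 and 2.01 CPM in the 1 µg/kg livers against a vehicle mean of 0.508 CPM. Cd177, a neutrophil surface protein, was 17.2, 0.0715 and 1.74 CPM at 1 µg/kg. Those most like the summed mature markers were Mcemp1 (r = 0.962), Ncf1, Ppbp, Cd53, Mmp25, Ms4a6c, Plek, Ptprc, Iqgap1 and Pde1b (r = 0.935). Mcemp1, a membrane protein of mast cells and myeloid cells, was 4.22, 0.107 and 1.09 CPM at 1 µg/kg against 0.0557 CPM in vehicle. Ptprc, the pan-leukocyte antigen CD45, was 63.9, 12.6 and 36.4 CPM at 1 µg/kg against 7.76 CPM.

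Neutrophil genes outside the 10 were taken from a list of 43, of which 33 were tested. Of these, 29 rose and 1 fell at 1 µg/kg (edgeR, adjusted p below 0.05), with a median log2 fold change of 3.23; over all genes tested 11.1% rose and 8.21% fell. At 3 µg/kg 2 rose and 1 fell (median 0.87), at 10 µg/kg 9 rose and 2 fell (median 1.59), and at 30 µg/kg 22 rose and 2 fell (median 2.94). Over all genes 5.17, 11.3 and 18% rose and 4.89, 11.2 and 19.4% fell at these 3 doses. The 2 of 33 that rose at 3 µg/kg lay near the share of all genes. The median over all genes lay between -0.03 and 0.00 at each of the 4 doses. With the 2 genes that had no vehicle counts set to their lower bound, the last 2 medians were 1.32 and 2.78. These were Ms4a3 and Itgb2l, and Cd177 and Mmp8 had 1 vehicle count each. Such genes passed the low-count filter through the groups in which they are high and could hardly be called lower. Below 1 µg/kg edgeR called 0 of the 33 genes, with at most 1 in either direction at an unadjusted p under 0.05 at each dose. The 1 µg/kg count fell to 16 without the first liver of that dose and to 1 of 17 tested in a fit of the 6 vehicle and 1 µg/kg libraries alone. The 10 µg/kg count was 4 without vehicle liver 2 or 3, 3 without the third 10 µg/kg liver and 18 of 25 tested with 6 libraries alone, and the 3 µg/kg count was 1 without any 1 vehicle liver or without the third 3 µg/kg liver.

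Among other granule contents 14 of 16 tested rose at 1 µg/kg (7 without the first liver) and 11 at 30 µg/kg, and 1 fell at both doses. Lcn2, the siderophore-binding lipocalin of the specific granule that hepatocytes also secrete, was 7.93 ± 1.35 CPM in vehicle and 1352, 14.5 and 38.0 CPM in the 1 µg/kg livers. It rose by 5.88 on the log2 scale (SE 1.21, edgeR adjusted p = 0.00213), a call that was lost without the first liver (0.0604). The 30 µg/kg livers had Lcn2 at 80.9, 47.1 and 338 CPM, higher by 4.29 (adjusted p = 0.00572 by edgeR). Mmp8, neutrophil collagenase, had 1 count in vehicle and was 17.3, 0.0357 and 3.48 CPM at 1 µg/kg. The 30 µg/kg values were 24.7, 6.22 and 25.9 CPM, a pooled ratio to vehicle of 1276 (229 to 50452) after 399 (71.2 to 15810) at 1 µg/kg. In 2 of the 3 livers at 30 µg/kg Mmp8 was thus above the highest 1 µg/kg liver, whereas Ngp and Ltf were far below theirs in all 3.

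Chil3, a chitinase-like protein of myeloid cells, rose from 0.120 CPM to 40.0, 0.179 and 6.69 CPM at 1 µg/kg and, at 30 µg/kg, to 1.34, 0.807 and 6.01 CPM. The latter call was lost without vehicle liver 1 or 3 or the third 30 µg/kg liver (edgeR adjusted p = 0.0545 to 0.107). Ms4a3, a marker of granulocyte and monocyte progenitors, had no vehicle counts and was 6.78, 0.0357 and 0.653 CPM at 1 µg/kg, at least 19.2-fold higher than 3 counts per vehicle library. It was called at 1 µg/kg (edgeR adjusted p = 0.0128) but not without the first liver (0.0525), and at 30 µg/kg its adjusted p was 0.156. Itgb2l, a neutrophil integrin subunit, also without vehicle counts, was 4.28, 0 and 0.707 CPM at 1 µg/kg, compared with 0.0420, 0.0384 and 0.585 CPM at 30 µg/kg. Haptoglobin (Hp), which hepatocytes make in bulk, was not called: 2454 ± 576 CPM in vehicle, 11350 CPM in the first 1 µg/kg liver and 890 and 1508 CPM in the others. Serpinb1a, an inhibitor of neutrophil serine proteases, was the one granule-list gene that fell, from 24.03 ± 7.59 to 10.1 ± 2.13 CPM at 1 µg/kg, and to 2.56 ± 1.97 CPM at 30 µg/kg. Its fall at 30 µg/kg was by 3.27 on the log2 scale (edgeR adjusted p = 6.89e-07), and its call at 1 µg/kg was lost without the third liver of vehicle or of that dose (0.0621 to 0.0744).

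Of the mature neutrophil genes 17 of 24 were tested, and 15 rose at 1 µg/kg (9 without the first liver) and 11 at 30 µg/kg, where 1 fell. Cxcr2, the receptor for neutrophil chemokines, was 0.205 ± 0.0807 CPM in vehicle, 6.48, 0.286 and 1.20 CPM at 1 µg/kg, compared with 2.43, 1.73 and 3.72 CPM at 30 µg/kg. Its log2 fold change was 3.59 and 3.60 at these doses (edgeR adjusted p = 0.00303 and 0.00116), and without the first 1 µg/kg liver the former p was 0.114. Il1r2, the decoy receptor for interleukin 1, was 0.714, 0.214 and 0.272 CPM at 1 µg/kg but 2.10, 1.19 and 2.71 CPM at 30 µg/kg, from 2 counts in vehicle. Clec4d, a C-type lectin of myeloid cells, was 1.61, 0.107 and 1.31 CPM at 1 µg/kg but 9.95, 2.11 and 5.96 CPM at 30 µg/kg. Both were higher in all 3 livers at 30 µg/kg than in any at 1 µg/kg. Trem1, which amplifies neutrophil responses, was 1.61, 0.0715 and 0.544 CPM and then 0.798, 0.576 and 1.22 CPM. Acod1, the itaconate-producing enzyme, was 11.4, 0.322 and 5.44 CPM at 1 µg/kg, compared with 1.34, 0.691 and 1.28 CPM at 30 µg/kg. Wfdc21 fell at 30 µg/kg from 250 ± 32.7 to 29.1 ± 21.8 CPM (log2 fold change -3.10, edgeR adjusted p = 0.000119). Fpr1, the formyl peptide receptor, and Hdc were not called at 30 µg/kg, and Hdc not at 1 µg/kg.

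**Figure D4:**
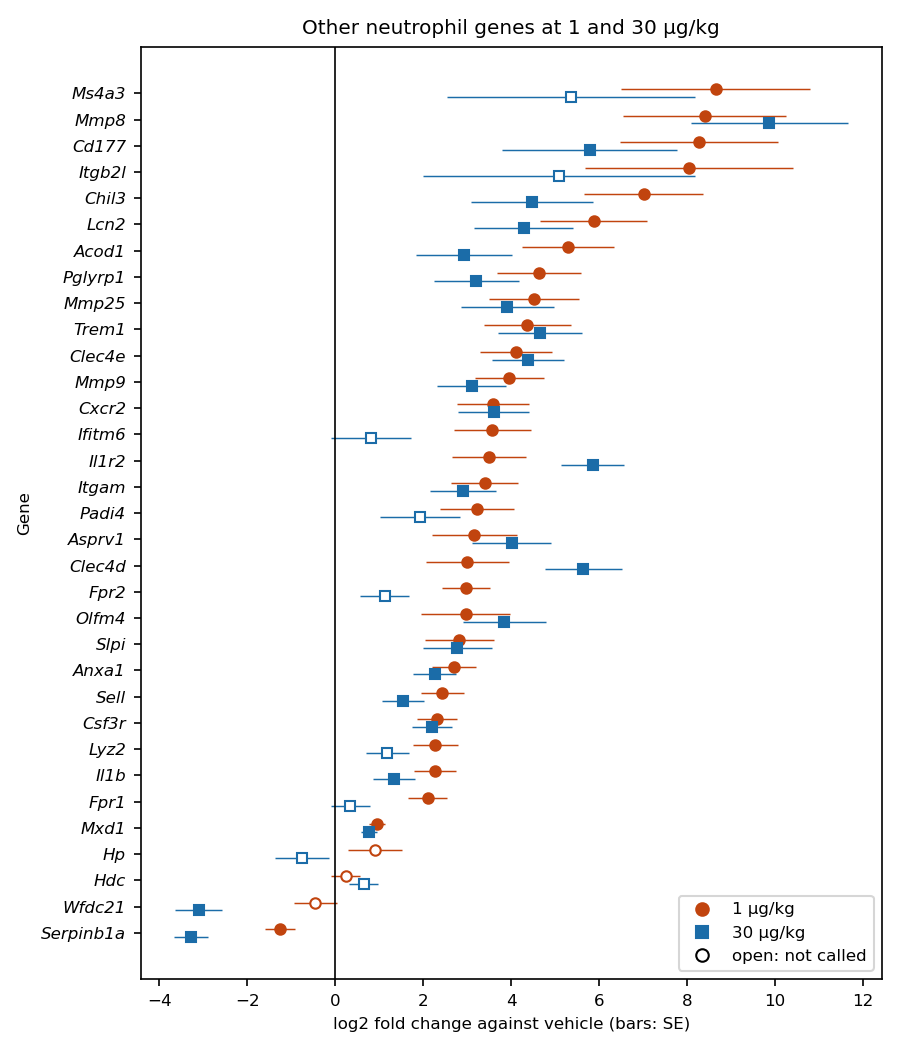
Log2 fold change against vehicle of the 33 tested neutrophil genes outside the 10, at 1 µg/kg (orange circles) and 30 µg/kg (blue squares). Filled symbols passed an adjusted p of 0.05 in edgeR and bars are standard errors; the top 4 genes had 0 or 1 vehicle count, so that their fitted values depend on the fit. Filled symbols on the right number 29 at 1 µg/kg and 22 at 30 µg/kg.

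Some listed genes were too low to test and were looked at after their values were seen. Fcnb, a ficolin of the specific granule, had 97, 0 and 16 counts in the 1 µg/kg livers and 2, 2 and 3 at 30 µg/kg. Ly6g, the surface antigen that defines mouse neutrophils, had 48, 0 and 7 counts at 1 µg/kg and 5, 8 and 4 at 30 µg/kg. Neither gene had a count in vehicle. Csf3, which encodes the granulocyte colony-stimulating factor, had 0 counts in vehicle and in every group up to 1 µg/kg. It had 1, 1 and 3 counts at 3 µg/kg, 9, 8 and 9 at 10 µg/kg and 5, 12 and 9 at 30 µg/kg. The 1 µg/kg livers with the most granule transcripts thus had no Csf3 count, at 3-count floors of 0.178 and 0.163 CPM.

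Of a list of granulocyte regulators and progenitor genes, 6 of 12 tested were called higher at 1 µg/kg (3 without the first liver), beside 11.1% of all genes. At 30 µg/kg 8 were called higher, beside 18%. Those at 1 µg/kg were Cd34, Csf2rb, Flt3, Irf8, Runx1 and Spi1, and at 30 µg/kg Kit and Cebpb were added. Cebpe, Gfi1 and Myb, also listed, were not among the genes called at any dose. Runx1, a transcription factor of blood stem and progenitor cells, rose from 0.806 ± 0.253 to 4.58 ± 3.49 CPM at 1 µg/kg and, at 30 µg/kg, 5.16 ± 1.29 CPM. Flt3, a progenitor cytokine receptor, rose from 0.271 ± 0.0614 to 1.32 ± 0.292 and 1.44 ± 0.220 CPM. Kit, the stem cell factor receptor, rose at 30 µg/kg from 4.15 ± 0.773 to 13.8 ± 0.545 CPM, and its adjusted p at 1 µg/kg was 0.0572 in edgeR. Spi1, which encodes PU.1, was 5.92 ± 2.07 CPM in vehicle and 28.4, 6.32 and 18.1 CPM at 1 µg/kg, called with but not without the first liver (edgeR adjusted p = 0.00655 and 0.0779). Cebpa, shared by hepatocytes and granulocyte progenitors, was 230 ± 59.9 CPM in vehicle, 228 ± 33.2 CPM at 1 µg/kg, then 160 ± 45.1 CPM at 30 µg/kg, and was not called at either dose.

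Recruitment genes were called higher for 10 of 13 tested at 1 µg/kg (4 without the first liver), beside 11.1% of all genes. At 30 µg/kg 10 rose and 1 fell, beside 18 and 19.4%. Cxcl1, a ligand of Cxcr2, was 2.66 ± 0.921 CPM in vehicle and 55.4, 4.97 and 9.58 CPM at 1 µg/kg, called there (edgeR adjusted p = 0.0136) but not without the first liver or vehicle liver 1 or 2 (0.0536 to 0.222) and not at 30 µg/kg (0.243). Cxcl5, another ligand, was 3.45, 0.0357 and 1.09 CPM at 1 µg/kg, called with but not without the first liver (edgeR adjusted p = 0.00471 and 0.0604), and 1.85, 0.576 and 0.638 CPM at 30 µg/kg, from 3 counts in vehicle. Cxcr4, the receptor that holds neutrophils in the marrow, rose from 0.514 ± 0.0531 to 4.37 ± 3.41 CPM at 1 µg/kg, and to 4.05 ± 0.891 CPM at 30 µg/kg. Its ligand Cxcl12 fell by 1.47 on the log2 scale at 30 µg/kg, from 573 ± 58.8 to 207 ± 37.5 CPM (edgeR adjusted p = 3.7e-08), and its adjusted p at 1 µg/kg was 0.0529.

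Receptors and inhibitors of these proteins changed in both directions. Tlr4, a receptor for calprotectin, rose from 1.49 ± 0.224 to 4.14 ± 1.81 CPM at 1 µg/kg and, at 30 µg/kg, 3.63 ± 1.60 CPM. These calls were lost without the first 1 µg/kg liver and without the third 30 µg/kg liver (edgeR adjusted p = 0.0845 and 0.0947). The protease inhibitor Slpi rose from 0.750 ± 0.361 to 5.33 ± 1.56 CPM at 30 µg/kg. Serpina1a, an alpha-1-antitrypsin that blocks elastase, fell at 30 µg/kg from 727 ± 76.9 to 333 ± 107 CPM, and Serpina3n, which blocks cathepsin G-like proteases, from 371 ± 22.7 to 187 ± 77.3 CPM. With Serpinb1a, 3 of the 5 tested genes of this list fell at 30 µg/kg and 2 rose, beside 19.4 and 18% of all genes. The phagocyte NADPH oxidase rose in 6 of 6 genes at 1 µg/kg (4 without the first liver), beside 11.1% of all genes. This oxidase rose in 5 of 6 genes at 30 µg/kg, without Rac2, beside 18%. Its cytochrome subunit Cybb went from 14.0 ± 3.01 to 64.1 ± 46.5 and 30.9 ± 3.57 CPM, the latter call lost without the third vehicle liver (edgeR adjusted p = 0.0711). These oxidase genes are also expressed by macrophages.

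Markers of other blood and liver cells were measured beside the 10 genes. Over all genes tested 11.1% rose at 1 µg/kg and 18% at 30 µg/kg. In vehicle the 14 monocyte and macrophage genes summed to 284 to 429 CPM, and to 1712, 432 and 1001 CPM in the 1 µg/kg livers and to 452 to 592 CPM at 30 µg/kg, with none at 0. Of the 14, 13 rose at 1 µg/kg (7 without the first liver), and at 30 µg/kg 5 rose and 1 fell. Marco, a macrophage scavenger receptor, was 345, 9.93 and 97.7 CPM at 1 µg/kg against 5.93 ± 3.17 CPM in vehicle. Gpnmb, a glycoprotein of lipid-laden macrophages, behaved otherwise, at 2.08, 1.39 and 13.8 CPM at 1 µg/kg but 251, 61.3 and 153 CPM at 30 µg/kg. The 16 cell cycle genes summed to 26.6 to 32.3 CPM in vehicle, 161, 39.2 and 52.8 CPM at 1 µg/kg and 64.6 to 114 CPM at 30 µg/kg, and 12 of them (4 without the first liver) and then 14 rose.

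Erythroid markers summed to 86.3 to 254 CPM in vehicle and to 192, 104 and 99.2 CPM at 1 µg/kg. Of 9 tested, 0 were called there by edgeR or DESeq2 and 1 was higher at an unadjusted p under 0.05 in edgeR. Slc4a1 rose at 30 µg/kg, while Klf1 and Car1 fell, Klf1 in a call lost on leaving out any of 4 livers (edgeR adjusted p = 0.0590 to 0.139). Platelet markers summed to 4.39 to 6.30 CPM in vehicle and 18.7, 4.47 and 10.2 CPM at 1 µg/kg, and 3 of 4 tested rose (1 without the first liver). Eosinophil markers summed to 4.82 to 7.73 CPM at 1 µg/kg against 1.08 to 2.42 CPM in vehicle, and 2 of 3 tested rose, but the defining genes Epx and Prg3 were too low to test and had 0 vehicle counts. Of the 9 listed eosinophil genes, 5 had 0 counts over the vehicle livers and 1 over the 1 µg/kg livers. Basophil and mast cell markers summed to 2.97, 1.00 and 0.762 CPM at 1 µg/kg, compared with 3.88 to 6.25 CPM at 30 µg/kg, against 0.994 to 1.38 CPM in vehicle, and 1 (0 without the first liver) and then 3 of 3 tested rose. Of the 11 T, B and NK cell genes 1 rose at 1 µg/kg, near the 11.1% of all genes tested, and 4 at 30 µg/kg, beside 18%. The same shares stand beside the platelet, eosinophil and basophil counts, each from only 3 or 4 tested genes. The hepatocyte sum was 91509, 136149 and 116644 CPM at 1 µg/kg and 62976 to 99349 CPM at 30 µg/kg, against 125539 to 237221 CPM in vehicle. The part of each of these cell types in the levels of the 10 genes was not tested.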

How the data were processed

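RNA-seq libraries of 27 livers, 9 groups of 3, were used. The authors deposited raw counts of reads for each gene. The submitters' notes on processing list FastQC 0.11.2, cutadapt 1.4.1, TopHat 1.4.1, SAMtools 0.1.19, HTSeq 0.6.1 and DESeq and the build GRCm38, with no role given for each. The 5 summary lines of each library were kept out of all totals; reads on no gene were 5.62 to 11.9% and reads on several genes 1.79 to 3.49% of the reads. The GENCODE annotation of GRCm38 gave symbols for 40254 of 41388 identifiers, and 2 listed symbols (Ahsp and Tf) had no match. All 10 genes matched a RefSeq promoter; amino acid sequences were not used here.

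Testing used edgeR 4.0.16 (R 4.3.3): filterByExpr with a minimum of 10 counts, TMM scaling, a one-way robust quasi-likelihood fit to all 27 libraries, each dose against vehicle, and Benjamini-Hochberg adjustment over 15121 genes. Intervals are exact or Wilson at 95% (Python 3.11.15, SciPy 1.17.1), and 3 counts served as the floor. RPKM used merged exon lengths. The fit was tested on simulated data. Alternatives were DESeq2 1.42.0, RLE factors, no filter, a replicate block, 6 libraries alone, no shallow library and leaving out each liver; list counts without the first 1 µg/kg liver were added after seeing the data. The genes, the lists and the rule for named genes (from each list, at 1 and 30 µg/kg, up to 4 called genes with the largest change and up to 2 uncalled, plus the 10 most correlated genes) were chosen with earlier results of these data known. Fcnb, Ly6g and Csf3 were chosen after their values were seen.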

Additional observations from a re-analysis of the deposited data

How the results depend on the processing

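The mean CPM of all 10 genes at 1 µg/kg was lower by 3.46 to 7.48 times without the first liver of that dose (Ltf 6.43 instead of 46.5, Mpo 4.08 instead of 27.6). Without the third liver the means of 8 genes at 10 µg/kg and of 7 at 30 µg/kg were over 1.5 times lower. With RLE factors no count below moved by over 1.5 times. Fitted on the 6 libraries of each comparison alone, 1 other neutrophil gene was called higher at 1 µg/kg instead of 29 and 0 of the 10 genes instead of 10, and only 3 of the 10 were then tested. At 3 µg/kg this fit called 3 of the 10, at 10 µg/kg 6 of the 10 and 18 other neutrophil genes instead of 9. DESeq2 called 1 other neutrophil gene at 3 µg/kg instead of 2 and 6 of the 10 at 10 µg/kg. Without the low-count filter 1 of the 10 was called at 10 µg/kg and 5 at 30 µg/kg, and without the shallow library 1 at 10 µg/kg. The replicate block gave 1 of the 10 at 10 µg/kg; no other call count moved by over 1.5 times with it. Same-numbered livers of vehicle and of the 4 higher doses deviated from their group means with correlations of -0.335 to 0.337, not all above 0.1 at any dose. The main fit used no pairing, and a batch shared by same-numbered livers was not tested. Leaving out 1 liver at a time gave 16 to 31, 1 to 2, 3 to 8 and 18 to 23 other neutrophil genes at 1, 3, 10 and 30 µg/kg, and 9 to 10, 0 to 0, 0 to 3 and 5 to 8 of the 10. The lowest values came without the first 1 µg/kg liver for 16 and without the third 10 µg/kg liver for 3. The cause of these moves was not tested.

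Without Ngp the granule minus mature difference was -1.49, -1.83, -2.48 and -2.47 at 1, 3, 10 and 30 µg/kg, lower because 1 of 7 genes leaves the granule sum. With 1 CPM added to each sum the vehicle mean was -1.27 and those of 10 and 30 µg/kg -1.47 and -1.73, below vehicle rather than above it. At 3 to 30 µg/kg depth limits the azurophil shares to 36 granule counts in the shallowest case.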
